A study of Homo sapiens with 12 samples.

Results

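U937 is a human myelomonocytic leukemia cell line. Its RNA was examined here for the transcripts of 8 genes that leukemic and antigen-presenting cells use to hold back or to drive T cells and macrophages. The genes were CD274, PDCD1LG2, LGALS9, HAVCR2, CD47, SIRPA, CD80 and CD86, and all rows of the expression table with these symbols were taken. The table held 50 transcripts of these genes among 197782 transcripts of 44786 symbols. Reads were present on 21 of the 50.

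The study treated leukemia cell lines with decitabine (DAC), a cytosine analogue that traps DNA methyltransferases, and with all-trans retinoic acid (ATRA), a ligand of retinoic acid receptors. The 12 U937 RNA-seq libraries comprised 3 each from untreated cells and from cells given DAC at 200 nM, ATRA at 1 µM, or DAC + ATRA at the same concentrations. DAC was renewed daily over 3 days. ATRA followed 48 h after the first DAC dose, and treated cells were collected at 72 h. The time label of untreated cells is 96 h. Labels and methods differ on the medium, with 20% FCS and 5 ng/ml GM-CSF in the labels and 10% FCS in the methods. All groups shared the cell line. The 3 libraries of a group were described as technical triplicates, so p-values measure the spread between these libraries only. Libraries are named by their column in the table, with untreated 1 to 3, DAC 4 to 6, ATRA 7 to 9 and DAC + ATRA 10 to 12.

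The encoded proteins are ligands and receptors by which immune cells are held back or activated. CD274 (PD-L1) and PDCD1LG2 (PD-L2) bind PD-1 on T cells and dampen them, while CD80 and CD86 engage CD28 to costimulate T cells and CTLA-4 to inhibit them. LGALS9 encodes galectin-9, a ligand of TIM-3, and HAVCR2 encodes TIM-3 itself, which myeloid leukemia cells can carry along with T cells. CD47 is the "do not eat me" ligand that binds SIRPα, the product of SIRPA on macrophages and other myeloid cells. Interferon-γ acting through JAK kinases and IRF1 is the classical inducer of CD274.

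Each library held 8042435 to 10683593 reads assigned to transcripts, with 36.3% to 42.5% of them on mitochondrial symbols. Values are normalized reads, that is the reads on a transcript divided by a size factor of its library, and 3 reads correspond to 2.50 to 3.71 normalized reads. Of 9 markers of the cell line, 5 passed the filter on low values (SPI1, CD4, LYZ, MPO and FCGR1A), while CD33, CSF1R, ELANE and CD68 were at group means of at most 2.54 normalized reads on the protein-coding transcript used. Over all its transcripts CD33 held 10093 reads, CSF1R 111, ELANE 21 and CD68 9. Mean MPO levels were 52120 normalized reads untreated, 26664 in DAC libraries, 33033 in ATRA libraries and 14973 in those given both. Of the 5 T cell markers, CD3D, CD3E, CD3G and CD8A held 13, 1, 38 and 14 reads in all 12 libraries. CD2 differed from these, with means of 5.52 normalized reads in untreated cells and 349 with DAC. The 3 erythroid markers had no read.

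The account of reads among the 8 genes was uneven. The 50 transcripts together held 12179 reads over the 12 libraries. CD47 held 5952 of them, HAVCR2 2421, SIRPA 2351, LGALS9 1182, PDCD1LG2 169, CD80 76, CD274 26 and CD86 2. Only 10 of 33 protein-coding transcripts had any read. No read was assigned to the protein-coding transcripts of CD274, LGALS9 and CD86. How reads shared by several transcripts were treated is not given in the sources used here. Of the 29 transcripts without reads, 24 had at most 10 bases in GENCODE 44 that no other transcript covers. CD274 ENST00000381573 had 39 and 12 such bases at its ends. There were exceptions both ways, since HAVCR2 ENST00000307851, listed in another version than in GENCODE 44, held 2415 reads with 7 such bases, and LGALS9 ENST00000302228 held none with 1350. An absence of reads on a transcript is not taken here as an absence of the gene's RNA.

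**Figure D1:**
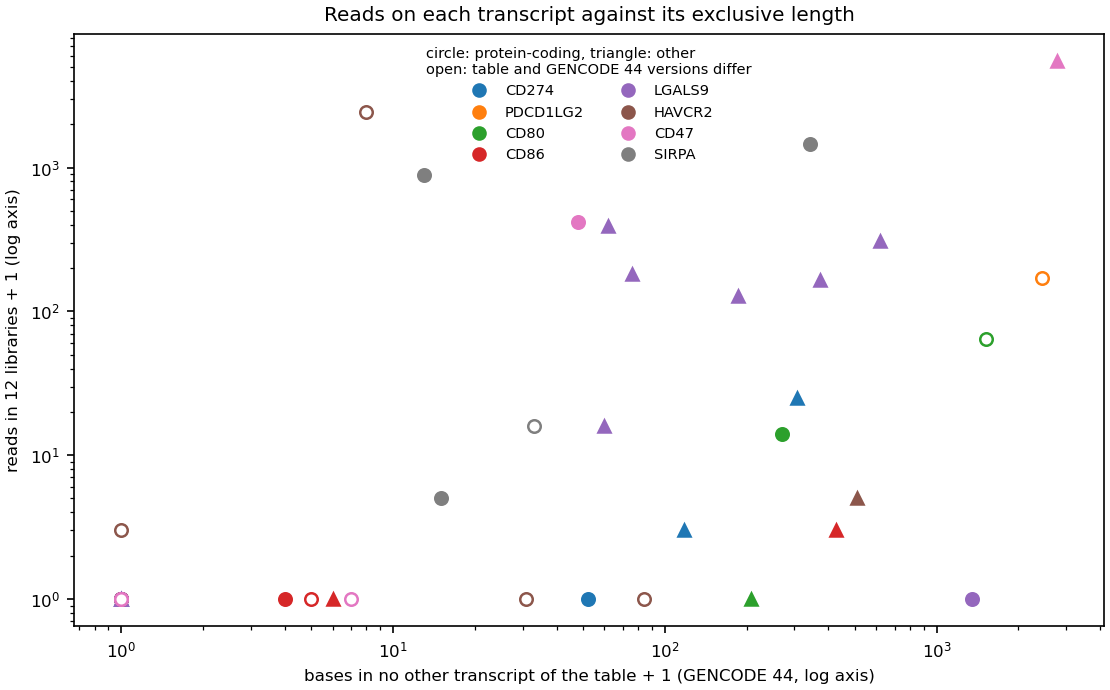
Reads on each of the member transcripts, summed over 12 libraries (y, plus 1, log axis), against the bases that no other transcript of the table covers in GENCODE 44 (x, plus 1, log axis). Transcripts at the left edge have no base of their own and held 0 to 2 reads. Open symbols mark transcripts whose version in the table differs from GENCODE 44, among them HAVCR2 ENST00000307851 with 2415 reads at 7 bases, and the exclusive length may not apply to these.

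The bases that a transcript alone covers differed between members. PDCD1LG2 had a single transcript, ENST00000397747, which spans chr9:5510531-5571282 in hg38 and shares none of its 2432 exonic bases. The table lists other versions of this transcript and of CD80 ENST00000264246 than GENCODE 44, so that the bases counted may differ. CD80 ENST00000264246 has 1515 bases of its own in GENCODE 44, all untranslated and at its ends, at chr3:119524293-119525749 and chr3:119559557-119559614. SIRPA ENST00000400068 has as its own an untranslated first exon of 341 bases at chr20:1894167-1894507. For CD274, LGALS9 and CD86, and for most of the reads of CD47, the bases that the transcripts with reads alone cover lie outside the exons of all protein-coding transcripts of the same gene. They are 2769 bases at chr3:108051971-108054739 for CD47 ENST00000471694, 306 bases at chr9:5465607-5465912 for CD274 ENST00000492923 and 427 bases at chr3:122091736-122092162 for CD86 ENST00000478390. Unspliced RNA of the gene could give reads there as well, and the table cannot tell it from the retained-intron transcript. LGALS9 ENST00000302228 had 1350 bases of its own at chr17:27629798-27631147, an extended untranslated first exon, and no read in any library.

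A pair of short coding segments separated transcripts of CD47 and SIRPA, and they are shown because the protein-coding values of CD47 and the second transcript of SIRPA rest on them. The CD47 segment is a 47-base coding exon of ENST00000398258 on the minus strand, at chr3:108055520-108055566. The SIRPA segment is a 12-base extension of a coding exon in ENST00000622179 on the plus strand, at chr20:1934755-1934766. Sequences are from hg38, 5′ to 3′ on the strand of the gene, with the exclusive bases in capitals and 20 flanking bases on each side in lower case.
CD47 ENST00000398258: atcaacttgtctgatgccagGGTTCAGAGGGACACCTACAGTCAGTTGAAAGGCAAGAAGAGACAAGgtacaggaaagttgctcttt
SIRPA ENST00000622179: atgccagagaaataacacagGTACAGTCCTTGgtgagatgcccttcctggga
The CD47 exon stands between ag and gt, the usual borders of introns. The SIRPA extension begins with GT and is followed by another gt, so the shorter and longer forms of that exon end at neighbouring donor sites. Of these lengths, 12 is a multiple of 3 and 47 is not.

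The promoters of CD274, CD80 and CD47 are shown as the starts of a ligand with an interferon-responsive element, of the gene with a called interaction of the agents and of the one that declined. They are the bases directly upstream of the RefSeq start, on GRCh38.p14 and the strand of the gene, with matches in capitals. The motifs searched on both strands were a pair of GAAA words 2 bases apart, as in interferon-stimulated response elements (ISRE), TTC and GAA 3 bases apart as in gamma-activated sites (GAS), GGG and CC 5 bases apart as in NF-kB sites, and AGGTCA, the retinoic acid receptor half-site. For CD274 at chr9:5450292-5450502, the 39 bases nearest the start were left off because GENCODE counts them as exon.
CD274: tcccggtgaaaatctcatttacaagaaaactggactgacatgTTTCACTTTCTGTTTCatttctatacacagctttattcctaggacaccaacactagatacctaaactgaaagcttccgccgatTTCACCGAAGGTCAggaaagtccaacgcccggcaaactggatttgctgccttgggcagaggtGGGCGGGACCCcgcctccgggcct
CD80 (chr3:119559615-119559864): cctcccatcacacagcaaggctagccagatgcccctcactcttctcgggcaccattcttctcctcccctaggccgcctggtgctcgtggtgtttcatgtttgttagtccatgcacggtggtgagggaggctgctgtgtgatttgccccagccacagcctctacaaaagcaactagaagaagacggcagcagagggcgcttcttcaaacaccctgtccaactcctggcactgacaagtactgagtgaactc
CD47 (chr3:108091032-108091281): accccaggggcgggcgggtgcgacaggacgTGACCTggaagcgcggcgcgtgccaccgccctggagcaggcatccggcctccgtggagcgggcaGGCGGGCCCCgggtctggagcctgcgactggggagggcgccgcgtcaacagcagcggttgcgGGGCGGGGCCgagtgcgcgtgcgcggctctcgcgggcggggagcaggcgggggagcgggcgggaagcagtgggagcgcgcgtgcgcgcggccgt
The CD274 stretch held overlapping ISRE matches at -208 to -199 and at -202 to -193, a GAS match at -125 to -117 and an AGGTCA at -117 to -112 that shares 1 base with it, counted from the RefSeq start. NF-kB matches on both strands lay at -63 to -54 and -62 to -53. The CD47 stretch held NF-kB matches at -156 to -147 and -94 to -85 and AGGTCA on the other strand at -220 to -215. Of 35116 promoters in the RefSeq table, 3.02% held the ISRE letters in their 250 upstream bases, 6.57% the GAS letters, 12.1% AGGTCA and 54.4% the NF-kB letters. CD80 held no match to any of these letters. CpG dinucleotides, the targets of DNA methylation, numbered 39 in the CD47 stretch, 16 in the full 250 bases of CD274 and 6 in CD80, against a median of 11. LGALS9 had 1 CpG and an AGGTCA at -147 to -142, and its stretch is not printed because it lies in an exon of ENST00000302228. The entries of CD86 held 2 and 4 CpGs. HAVCR2, SIRPA and PDCD1LG2 were not among the promoters of this table.

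The PD-1 ligand PDCD1LG2 rose with DAC. Untreated libraries held 2.76, 1.82 and 2.77 normalized reads, DAC libraries 29.2, 34.1 and 30.9, ATRA libraries 5.28, 4.55 and 8.32, and DAC + ATRA libraries 14.5, 20.0 and 16.1. Every treated library was above every untreated one, and the DAC + ATRA libraries lay between those with ATRA and those with DAC without overlap. This transcript reached the minimum of 10 normalized reads only in DAC and DAC + ATRA libraries, and therefore its adjusted p-values are taken from a fit without a minimum, over all 25317 protein-coding transcripts with a read. The log2 fold change against untreated was 3.24 with DAC (SE 0.32, adjusted p = 7.18e-12 by limma without a minimum), a 12.8-fold higher mean. With ATRA it was 1.01 (SE 0.32, adjusted p = 0.152 by limma without a minimum), which missed the threshold of 0.01. With DAC + ATRA it was 2.37 (SE 0.32, adjusted p = 1.97e-07 by limma without a minimum), or 6.88-fold. Set against DAC alone, the combination gave -0.87 (95% interval -1.54 to -0.20, adjusted p = 0.212 by limma without a minimum), and the difference did not pass. SEs and intervals are from the fit of the 9016 protein-coding transcripts that passed the minimum. Set against ATRA alone it gave 1.36 (SE 0.32, adjusted p = 0.00488 by limma without a minimum). That call was lost in 4 of 12 fits without a minimum that left out 1 library each, those without ATRA library 7 or 8 or DAC + ATRA library 11 or 12 (highest adjusted p = 0.0313 by limma).

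PDCD1LG2 was also the member whose response to both agents lay furthest below the sum of the single agents. The interaction, the log2 change with DAC + ATRA minus the sum of the changes with DAC and with ATRA, was -1.88 (SE 0.46, adjusted p = 0.0529 by limma without a minimum) and missed the threshold. On the linear scale the change with both agents minus the sum of the single-agent changes was -18.1 normalized reads (SE 2.49, n = 3 per group). The 8 reads in untreated libraries limit the folds, and the counting interval of the DAC fold of summed reads ran from 6.26 to 30.7. Intervals of this kind cover counting error only.

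The other PD-1 ligand, CD274, held too few reads for a test across transcripts. Reads on ENST00000492923 were 0, 0 and 0 in untreated libraries, 4, 1 and 2 with DAC, 3, 1 and 0 with ATRA, and 5, 5 and 3 with DAC + ATRA. Untreated cells were thus the only group without a read, and the DAC + ATRA libraries did not overlap the untreated ones. DAC + ATRA and ATRA libraries tied at 3 reads on this transcript and overlapped over all transcripts of CD274. Over all transcripts of CD274, the 13 reads with DAC + ATRA were 4.94-fold above a level of 3 reads over the 3 untreated libraries. That level was taken as the upper limit that a count of 0 allows, and counting error of the treated reads is not included. On the same basis the 8 reads with DAC were 2.95-fold above it. Exact two-sided permutation tests of the 5 pairs of groups gave p = 0.1 for DAC and for DAC + ATRA against untreated and p = 0.4 for ATRA against untreated (0.25, 0.25 and 0.4 after adjustment over the 5). With 3 libraries against 3, the smallest p possible is 0.1. A difference between DAC + ATRA and DAC was not detectable from these counts, with a ratio of summed reads of 1.68 and a counting interval from 0.644 to 4.67.

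**Figure D2:**
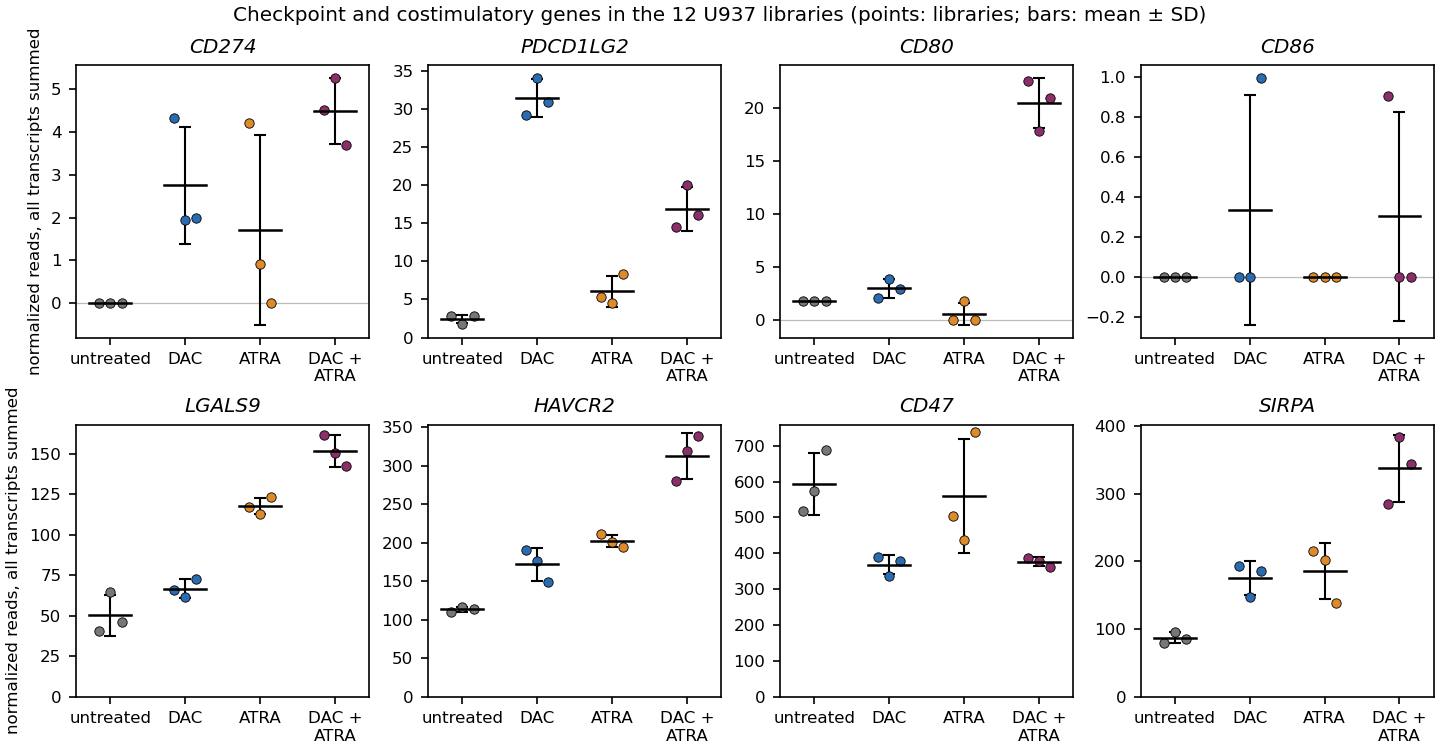
Normalized reads (y, linear, each gene on its own scale) of the 8 genes, summed over all transcripts of a gene, in the 12 libraries of 4 groups (x). Points are libraries, bars are mean and SD. PDCD1LG2 is highest with DAC at 29.2 to 34.1, CD80 is high only in the DAC + ATRA libraries at 17.9 to 22.6, and CD47 is at 338 to 389 in all libraries given DAC.

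CD80 was high in the DAC + ATRA libraries. Reads on ENST00000264246 were 2 in each untreated library, 2, 4 and 2 with DAC, 0, 2 and 0 with ATRA, and 18, 14 and 15 with DAC + ATRA. The normalized levels were 16.3, 14.7 and 18.5 with DAC + ATRA and at most 3.90 in any other library. This transcript reached the minimum of 10 normalized reads only in the DAC + ATRA libraries, so that in the fit with that minimum a difference of the group was given by the filter. In the fit without a minimum the log2 fold change of DAC + ATRA was 2.62 against untreated (adjusted p = 3.34e-05 by limma), 2.28 against DAC (adjusted p = 0.00149 by limma) and 3.63 against ATRA (adjusted p = 1.71e-08 by limma). In a fit with the minimum and a pseudocount of 0.1 in place of 1, the first 2 of these comparisons missed the threshold (adjusted p = 0.0143 and 0.0919 by limma). The call against DAC was also lost in 4 of 12 fits without a minimum that left out 1 library each, those without DAC library 4 or 6 or DAC + ATRA library 10 or 12 (highest adjusted p = 0.0175 by limma). The ratio of summed reads to untreated was 8.94, with a counting interval from 3.81 to 25.6. Neither single agent passed, with 0.34 for DAC (95% interval -0.56 to 1.24) and -1.005 for ATRA (95% interval -1.90 to -0.11, adjusted p = 0.460 by limma without a minimum).

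The change of CD80 with both agents exceeded the sum of the single-agent changes. The interaction was 3.29 on the log2 scale (SE 0.61 in the fit with the minimum, adjusted p = 0.00407 by limma without it). The excess on the linear scale was 15.1 normalized reads (SE 1.40, n = 3 per group). In fits with the minimum, the interaction missed the threshold in edgeR (4.05, adjusted p = 0.0362) and with a pseudocount of 0.1 (5.49, adjusted p = 0.0381 by limma). Without a minimum it also missed the threshold in 9 of 12 fits that left out 1 library each, with values from 3.04 to 3.78 (adjusted p = 0.000936 to 0.0297 by limma), and it passed only without DAC library 5, ATRA library 8 or ATRA library 9. The second transcript, ENST00000478182, has 269 untranslated bases of its own at chr3:119527464-119527732. It held 7, 3 and 2 reads in DAC + ATRA libraries, 1 read in DAC library 6 and none in the other libraries. Its DAC + ATRA level was 4.56-fold above the same level of 3 reads over the untreated libraries, without counting error of the treated reads. ENST00000264246 overlaps TIMMDC1 on the other strand, and the strand setting of the counting is not given in the sources used here.

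CD86, the second ligand of CD28, was close to absent from the table. A single read on ENST00000478390 was found in DAC library 6 and another in DAC + ATRA library 10, and the other libraries held none. Its 7 protein-coding transcripts have at most 4 bases of their own in GENCODE 44, and the groups overlapped in all 5 comparisons (exact two-sided permutation p = 1.0 each). The counting interval of the ratio of DAC + ATRA to DAC ran from 0.0131 to 81.0, so these counts are not informative.

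**Figure D3:**
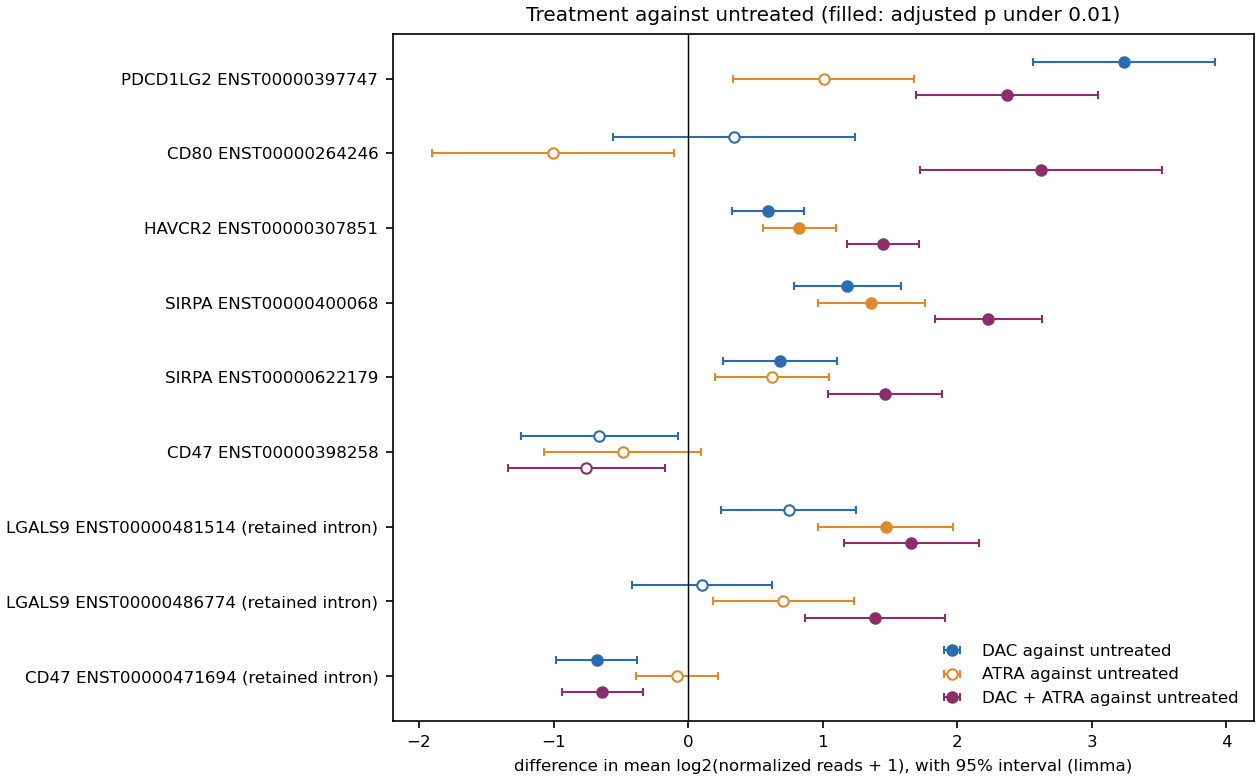
Log2 fold changes against untreated on the log2(normalized reads + 1) scale with 95% intervals from limma (x) for 9 transcripts of 6 genes (y), colored by treatment. Filled points passed an adjusted p under 0.01 in fits with the minimum of normalized reads. CD80 reached that minimum only in DAC + ATRA libraries, and PDCD1LG2 only in DAC and DAC + ATRA libraries. The filter thus favoured the calls of both genes in those groups. Within a transcript, the point furthest right is that of DAC + ATRA for CD80, HAVCR2, SIRPA and LGALS9 and that of DAC for PDCD1LG2. The CD47 transcripts lie left of 0.

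HAVCR2, which encodes the inhibitory receptor TIM-3, rose with each agent and most with both. ENST00000307851 held 110, 116 and 114 normalized reads in untreated libraries, 191, 175 and 149 with DAC, 210, 201 and 194 with ATRA, and 280, 318 and 337 with DAC + ATRA. No group overlapped another, in the order untreated, DAC, ATRA, DAC + ATRA. The log2 fold changes against untreated were 0.59 with DAC (SE 0.13, adjusted p = 0.000665 by limma), 0.83 with ATRA (SE 0.13, adjusted p = 8.10e-05 by limma) and 1.45 with DAC + ATRA (SE 0.13, adjusted p = 5.49e-09 by limma). The combination was also above DAC, by 0.86 (adjusted p = 5.01e-05 by limma), and above ATRA, by 0.62 (adjusted p = 0.000463 by limma). The interaction was 0.03 (95% interval -0.35 to 0.41), and on the linear scale the change with both agents exceeded the sum of the single-agent changes by 51.2 normalized reads (SE 21.3, n = 3 per group). The median of all tested transcripts was itself 0.22 with DAC on this scale and 0.02 with TMM scaling in edgeR. With that scaling the DAC change of HAVCR2 was 0.40 and missed the threshold (adjusted p = 0.0115 by edgeR). For DAC + ATRA the medians were 0.20 and 0.06. The 2 other transcripts of HAVCR2 with reads, ENST00000522902 and ENST00000517358, held 4 and 2.

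LGALS9, the gene of the TIM-3 ligand, rose with ATRA. The tests used an additional fit over all 19373 transcripts, since no protein-coding transcript of LGALS9 had a read. ENST00000481514, whose own bases are chr17:27644065-27644125, held 12.9, 18.2 and 12.01 normalized reads in untreated libraries, 28.1, 18.5 and 27.9 with DAC, 37.0, 44.6 and 41.6 with ATRA, and 48.8, 54.7 and 38.3 with DAC + ATRA. The ATRA and DAC + ATRA libraries overlapped each other and were all above the libraries without ATRA. The log2 fold change was 1.47 with ATRA (SE 0.24, adjusted p = 8.69e-05 by limma), 1.66 with DAC + ATRA (SE 0.24, adjusted p = 2.69e-06 by limma) and 0.75 with DAC (SE 0.24, adjusted p = 0.0143 by limma). Against ATRA alone, the combination gave 0.19 (95% interval -0.31 to 0.69).

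Of the 5 retained-intron transcripts of LGALS9 that passed the minimum, ENST00000579402, ENST00000579930 and ENST00000583671 did so mainly through libraries given ATRA, so the counts here are a description. With DAC + ATRA all 5 were called higher, with log2 fold changes from 1.39 to 1.95, where 25.5% of all transcripts were called higher. With ATRA, ENST00000579930 was called as well (2.02, adjusted p = 0.00387 by limma), and the other 3 gave 0.71 to 1.08 without passing, against a background of 5.11% called higher. With DAC none of the 5 passed in limma, where 22.2% of all transcripts were called higher. ENST00000481514 had an unadjusted p of 0.0051 there, and values of the 5 ran from -0.034 to 0.91. ENST00000486774, with 616 bases of its own, was at 13.8, 20.0 and 12.9 normalized reads untreated, at 16.2, 18.5 and 14.9 with DAC, at 23.2, 26.4 and 27.5 with ATRA and at 49.7, 32.6 and 44.5 with DAC + ATRA. Its DAC + ATRA libraries were all above its ATRA libraries, yet the difference of 0.68 did not pass (adjusted p = 0.0344 by limma). Another transcript with reads, ENST00000448970, had 3 to 4 reads per group. In GENCODE 44 most of these transcripts overlap a second gene model on the same strand, and LGALS9 has near-identical copies, LGALS9B and LGALS9C, so the assignment of reads is uncertain.

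SIRPA, the myeloid receptor of CD47, rose with each agent and most with both. ENST00000400068 held 40.4, 51.0 and 43.4 normalized reads in untreated libraries, 108, 81.8 and 124 with DAC, 137, 129 and 89.1 with ATRA, and 189, 252 and 206 with DAC + ATRA. The libraries given a single agent overlapped each other, all above untreated and all below DAC + ATRA. The log2 fold changes were 1.19 with DAC (SE 0.19, adjusted p = 2.48e-05 by limma), 1.36 with ATRA (SE 0.19, adjusted p = 2.09e-05 by limma) and 2.23 with DAC + ATRA (SE 0.19, adjusted p = 2.73e-09 by limma). The last corresponds to a 4.80-fold higher mean. Against DAC the combination gave 1.05 (adjusted p = 0.000387 by limma) and against ATRA 0.87 (adjusted p = 0.000741 by limma). The interaction was -0.31 (95% interval -0.87 to 0.25).

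The second SIRPA transcript, ENST00000622179, read from the 12-base extension shown above, changed less. It held 38.6, 44.6 and 42.5 normalized reads untreated, 83.2, 61.4 and 60.8 with DAC, 78.1, 71.9 and 49.1 with ATRA, and 94.0, 127 and 133 with DAC + ATRA. The log2 fold changes were 0.68 with DAC (adjusted p = 0.00825 by limma), 0.63 with ATRA (adjusted p = 0.0426 by limma, not called) and 1.46 with DAC + ATRA (adjusted p = 3.23e-06 by limma). The first-exon transcript held 51.7% ± 1.47 (SD, n = 3) of the reads on both in untreated cells. The share was 60.2% ± 5.90 after DAC, 64.1% ± 0.378 after ATRA and 64.6% ± 3.39 after both. All treated libraries, at 56.5% or more, were above all untreated libraries, at 53.3% or less. Exact two-sided permutation tests of these shares gave p = 0.1 for each treatment against untreated, the smallest p possible here (0.167 after adjustment over 5 comparisons). The remaining transcripts ENST00000358771 and ENST00000356025 held 15 and 4 reads. SIRPA resembles SIRPB1 and SIRPG in sequence, and ENST00000400068 overlaps a gene model on the other strand.

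**Figure D4:**
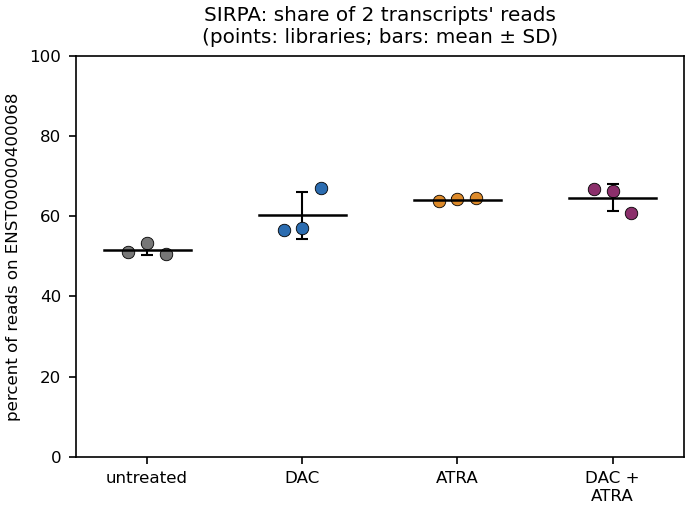
Share of the reads on SIRPA transcripts ENST00000400068 and ENST00000622179 that fell on the first (y, percent, linear from 0 to 100) in the 12 libraries by group (x). Points are libraries, bars are mean and SD. Untreated libraries are at 50.5% to 53.3% and treated libraries at 56.5% to 67.0%.

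CD47 was the member that went down. On the retained-intron transcript ENST00000471694, which carried 5534 reads, the untreated libraries held 475, 537 and 633 normalized reads, DAC libraries 360, 312 and 350, ATRA libraries 475, 417 and 687, and DAC + ATRA libraries 356, 351 and 342. All libraries given DAC, alone or with ATRA, were below all libraries without it, and ATRA library 9 was the highest of the 12. In the fit over all transcripts the log2 fold change was -0.68 with DAC (SE 0.15, adjusted p = 0.000477 by limma), -0.64 with DAC + ATRA (SE 0.15, adjusted p = 0.000709 by limma) and -0.08 with ATRA (95% interval -0.38 to 0.22). The combination was 0.56 lower than ATRA alone on the log2 scale (difference -0.56, adjusted p = 0.00344 by limma). The test was not repeated without ATRA library 9, and the other ATRA libraries, at 475 and 417, were also above all DAC + ATRA libraries. It differed from DAC alone by 0.04 (95% interval -0.26 to 0.34).

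The protein-coding CD47 transcript ENST00000398258, whose own bases in GENCODE 44 are the 47-base exon, had lower counts and a wider spread. It held 44.1, 36.4 and 54.5 normalized reads untreated, 29.2, 26.3 and 27.9 with DAC, 28.5, 20.9 and 51.6 with ATRA, and 30.7, 28.4 and 19.8 with DAC + ATRA. The DAC and DAC + ATRA libraries did not overlap the untreated libraries, and ATRA library 9 again stood above the other libraries with ATRA. The log2 fold changes were -0.66 with DAC (SE 0.28, adjusted p = 0.0558 by limma) and -0.76 with DAC + ATRA (SE 0.28, adjusted p = 0.0260 by limma), and neither passed. Without ATRA library 9 the latter passed (adjusted p = 0.00968 by limma). The share of this transcript in the reads on both CD47 transcripts was 7.59% ± 1.11 (SD, n = 3) untreated, 7.56% ± 0.203 after DAC, 5.81% ± 1.11 after ATRA and 6.97% ± 1.32 after both. Exact two-sided permutation tests of these shares against untreated gave p = 1.0, 0.2 and 0.6.

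Counted by gene, 5 members were tested on protein-coding transcripts. PDCD1LG2 and CD80 passed the minimum only through the groups in which they were high, so the counts below are a description and nothing about the members is read from them. HAVCR2 and SIRPA, which were above the minimum in every library, were called in each of the 5 comparisons of groups, and CD47 in none. With DAC, PDCD1LG2, HAVCR2 and SIRPA changed, that is 3 of 5, where 39.3% of all 9016 tested transcripts were called. With ATRA, HAVCR2 and SIRPA changed, 2 of 5 against a background of 9.14%. With DAC + ATRA, PDCD1LG2, HAVCR2, SIRPA and CD80 changed, 4 of 5 against 46.8%. The interaction was called for CD80, 1 of 5 against 2.46%, or 0.787% called higher. The combination differed from DAC in 3 of 5 (background 11.3%, higher 6.08%) and from ATRA in 4 of 5 (background 34.8%, higher 25.9%). The called changes of these 5 genes were increases in all 5 comparisons, and among all tested transcripts the shares called higher were 30.6% for DAC, 6.47% for ATRA and 32.6% for the combination, and the shares called lower 8.7%, 2.67% and 14.2%. The balance of directions over all transcripts depended on the scaling, with 2763 higher and 784 lower with DAC here and 2294 and 1604 in edgeR. With ATRA these counts were 583 and 241 here, and 599 and 389 in edgeR. With DAC + ATRA they were 2937 and 1278 here, and 2635 and 1834 in edgeR. Against ATRA the combination gave 2335 and 801 here, and 2163 and 1231 in edgeR. In the fit over all transcripts, 12 member transcripts of 6 genes were tested. Of these, 4 were called higher and 1 lower with DAC, where 33.5% of all transcripts were called, 22.2% higher and 11.3% lower. With ATRA 4 were called higher, where 6.97% of all were called and 1.87% were lower. With DAC + ATRA 10 were higher and 1 was lower, where 41.6% of all were called and 16.1% were lower. Against DAC 6 were higher (background 8.77%), against ATRA 5 were higher and 1 was lower (background 29.4%), and 1 had a called interaction (background 1.51%).

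**Figure D5:**
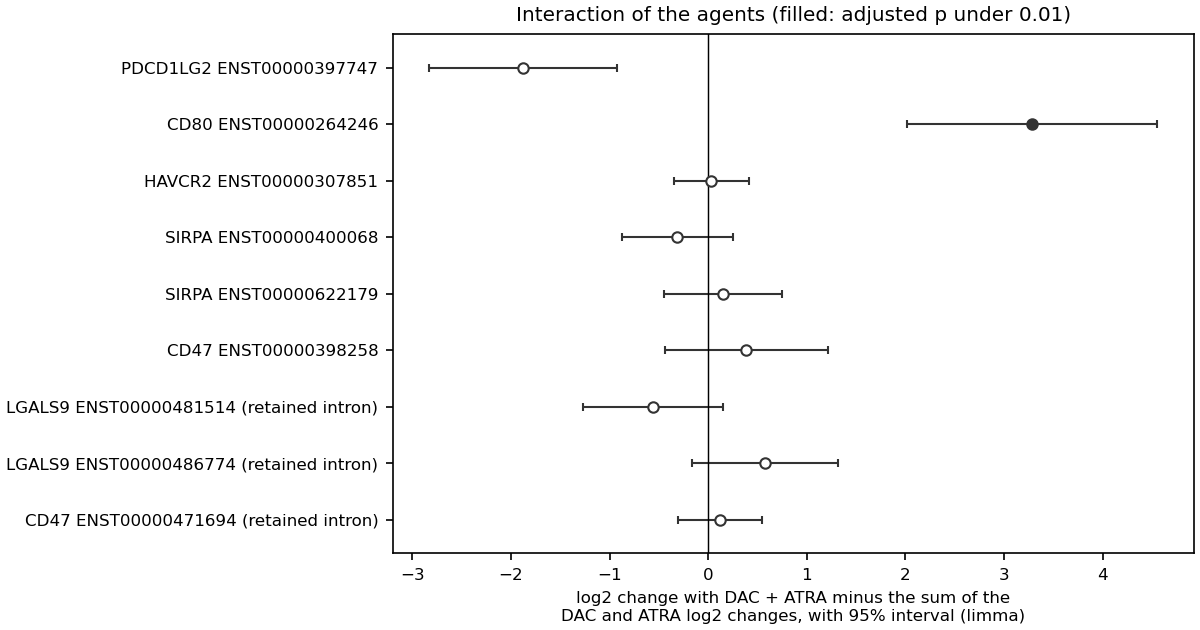
Interaction of DAC and ATRA (x, log2 change with both minus the sum of the single-agent log2 changes, with 95% interval from limma) for 9 transcripts of 6 genes (y). CD80 at 3.29 is the filled point, which passed an adjusted p under 0.01 in the fit with the minimum of normalized reads. This transcript reached that minimum only in the DAC + ATRA libraries, which favoured the call. Without the minimum, the full fit kept the call, as did 3 of 12 fits that each left out a single library. PDCD1LG2 at -1.88 lies on the other side of 0, and the intervals of the other 7 transcripts include 0.

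Transcripts of other genes with the most similar course over the 12 libraries were ranked by Pearson's r of log2(normalized reads + 1), as a description over libraries that share their groups. For PDCD1LG2 they were CRAT (0.98), IQSEC3 (0.98) and COL1A1 (0.98). For HAVCR2 they were PDLIM5 (0.99), the interferon receptor subunit gene IFNAR2 (0.99) and SKAP2 (0.99), which encodes an adaptor that binds SIRPα. For SIRPA they were SH3PXD2B (0.98), MCEMP1 (0.98) and CHRM4 (0.98). CD80 was closest to SMAD3 (0.93), PLXNA1 (0.93) and ALPPL2 (0.92). CD47 was closest to TWF1 (0.89), POLI (0.88) and ARHGEF7 (0.87).

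Among the regulators of interferon signaling and of PD-L1, 14 of 23 listed genes were tested. With DAC + ATRA 12 rose and 1 fell, where 32.6% of all tested transcripts rose and 14.2% fell. With DAC 9 rose and 1 fell, against 30.6% and 8.7%, and with ATRA 3 rose, against 6.47%. The list's median log2 fold change with DAC + ATRA was 0.95, and that of all tested transcripts 0.20. SOCS1 and CIITA reached the minimum in no untreated library, and among the 12 at the minimum in every library 10 rose and 1 fell with DAC + ATRA, 7 rose and 1 fell with DAC, and 3 rose with ATRA. IRF1, the transcription factor that drives CD274, had mean levels of 53.5 normalized reads untreated, 125 in DAC libraries, 338 in ATRA libraries and 694 in those given both, and rose by 1.21, 2.62 and 3.67 on the log2 scale (adjusted p = 2.85e-07, 1.20e-11 and 5.76e-15 by limma). CIITA, the activator of MHC class II genes, reached the minimum only in libraries given DAC, and without a minimum rose by 2.70 with DAC and 4.14 with DAC + ATRA (adjusted p = 3.37e-10 and 6.37e-19 by limma). SOCS1, a feedback inhibitor of JAK kinases, gave the highest value with DAC + ATRA, 5.86 (adjusted p = 0.000159 by limma without a minimum), from 3.38 normalized reads untreated. RELA, an NF-kB subunit, gave the lowest, -1.72 (adjusted p = 4.02e-05 by limma), on a transcript with 370 of the gene's 909 reads.

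JAK2, which transmits the interferon-γ signal, passed only where both agents were given, with 0.99 against untreated (adjusted p = 2.45e-08 by limma) and 0.24 with DAC and 0.13 with ATRA, neither called. Its interaction was 0.63 (adjusted p = 0.00851 by limma). CMTM6, which stabilizes PD-L1 at the cell surface, rose by 0.59 with DAC and 0.68 with DAC + ATRA, and gave 0.12 with ATRA without passing.

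Of 31 other checkpoint and costimulatory ligands, 16 were tested. With DAC + ATRA 9 rose and 2 fell, with DAC 4 rose and 2 fell, and with ATRA 3 rose. The shares of all tested transcripts that rose were 32.6%, 30.6% and 6.47% in that order. The list's median log2 fold change with DAC + ATRA was 0.66, against 0.20 for all tested transcripts. Among the 13 at the minimum in every library, 7 rose and 2 fell with DAC + ATRA, 2 rose and 2 fell with DAC, and 3 rose with ATRA. CEACAM1, an inhibitory ligand of TIM-3 and of itself, was highest with DAC + ATRA. The transcript used, ENST00000599389, held 260 of the gene's 2470 reads. No untreated library had a read on it, and the 238 reads with DAC + ATRA were 90.5-fold above a level of 3 reads over the untreated libraries. HMGB1, a nuclear protein that TIM-3 can bind, fell by 1.02 on the log2 scale (adjusted p = 4.90e-08 by limma). ICOSLG, the ligand of ICOS, fell with DAC (-1.003, adjusted p = 0.00279 by limma) and gave -0.56 with DAC + ATRA (adjusted p = 0.0709 by limma).

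Of 19 genes around CD47, SIRPα and phagocytosis, 12 were tested. With DAC + ATRA 5 rose and 2 fell, with DAC 5 rose and 1 fell, and with ATRA 3 rose and 1 fell, against the same shares of 32.6%, 30.6% and 6.47% that rose among all. The list's median log2 fold change with DAC + ATRA was 0.48, against 0.20. Among the 9 at the minimum in every library, 3 rose and 2 fell with DAC + ATRA, 3 rose and 1 fell with DAC, and 2 rose and 1 fell with ATRA. THBS1, a secreted ligand of CD47, was highest, with 665 reads in DAC + ATRA libraries and 1 in untreated libraries, a ratio of summed reads of 759 with a counting interval from 136 to 30015. QPCTL, the enzyme that modifies CD47 so that SIRPα can bind it, was lowest with DAC + ATRA, at -1.22 (adjusted p = 7.97e-05 by limma), and gave -0.36 with DAC and -0.67 with ATRA without passing. Of 7 listed receptors on T cells, only BTLA was tested, and the genes of PD-1, CTLA-4 and CD28 did not pass the minimum. BTLA reached the minimum in 2 DAC and 3 DAC + ATRA libraries and in no other, and without a minimum rose with DAC + ATRA (1.99, adjusted p = 1.31e-05 by limma).

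Monocyte maturation markers moved in the same libraries. Of 7 listed, 4 were tested, and ITGAM, ITGAX, CD38 and MRC1 rose with DAC + ATRA by 3.75, 3.77, 3.94 and 5.71 on the log2 scale. With DAC CD38 fell by 0.70 on the log2 scale and the other 3 rose, and with ATRA MRC1 gave -0.38 without passing while the other 3 rose. ITGAX reached the minimum in no untreated library and MRC1 in 2, and without a minimum both were again called with DAC and with DAC + ATRA. ITGAX was measured on a transcript with 663 of its 1849 reads. The list summed to 694 to 814 normalized reads in untreated libraries, 2161 to 2700 with DAC, 10587 to 11344 with ATRA and 11356 to 12247 with DAC + ATRA. CD38 carried most of the sum in libraries given ATRA, with means of 9402 normalized reads with ATRA and 7617 with DAC + ATRA against 496 untreated. CD14 held 8 reads in all, CD163 13 and FCGR3A none. The T cell list, by way of CD2, summed to 301 to 395 normalized reads with DAC and 137 to 181 with DAC + ATRA. It summed to 4.55 to 9.50 with ATRA and 2.76 to 10.2 untreated. The B cell list summed to 133 to 143 normalized reads untreated, 519 to 533 with DAC, 229 to 374 with ATRA and 1315 to 1394 with DAC + ATRA. Nearly all of it was CD79A, while MS4A1 held 9 reads in all. The epithelial list summed to 8.65 to 25.9 normalized reads with DAC, 12.4 to 23.2 with DAC + ATRA, 0 with ATRA and at most 0.910 untreated. The part of these changes in the levels of the 8 genes was not tested.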

How the data were processed

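RNA-seq of 12 U937 libraries was used, 3 per group, and groups were taken from the sample labels and the table's column names. According to the study's methods, total RNA was depleted of ribosomal RNA, sequenced strand-specifically as 50 bp paired-end reads, aligned to hg38 with STAR, counted with htseq-count and tested with DESeq2. Tool versions, annotation release, counting mode and strand setting were not given in the sources used here. Each deposited signal value is a count of reads on a transcript divided by a size factor of its library. Whole reads were recovered from the step of each library (100% of values within 0.01 of a read).

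Transcripts were matched to GENCODE 44 (174768 of 197782), and 90879 were taken as protein-coding, 15414 of them by symbol only. Protein-coding transcripts with at least 10 normalized reads in at least 3 libraries were tested with limma 3.58.1 in R 4.3.3 on log2(normalized reads + 1), with all 12 libraries in one fit and Benjamini-Hochberg adjustment at 0.01, the study's FDR. For PDCD1LG2, CD80, CIITA, SOCS1 and BTLA, adjusted p-values come from the fit without the minimum. Fold changes are on that log2 scale, which understates changes of low transcripts. limma was used in place of the edgeR test planned for raw counts, since the table holds normalized values. Exact permutation tests (scipy 1.17.1) and counting intervals (95%, exact conditional binomial) were added for members with few reads. Where untreated libraries held no read, folds over a level of 3 reads were given, which do not include counting error of the treated reads. Alternatives were edgeR 4.0.16 with TMM and DESeq2 1.42.0 on recovered reads, other scalings, filters, pseudocount, threshold and transcript sets, and leaving out each library. The limma step was tested on simulated data.

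The genes named were the 8 members, the 3 most similar transcripts of each tested member, the highest and lowest of each list with DAC + ATRA, and JAK2, IRF1, CMTM6, CIITA, QPCTL and ICOSLG. A further gene of this rule is not reported here. A list gene was represented by its protein-coding transcript of highest mean level. CD2 and the other marker genes were named as part of the marker check. The members and lists were chosen with earlier results of these data known. Sequences come from hg38 and RefSeq (GRCh38.p14).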

Additional observations from a re-analysis of the deposited data

Results flagged for a closer look

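The effect of DAC on CD80 ENST00000264246 differed by whether ATRA was present. The interaction was 3.29 on the log2 scale (SE 0.61), with 47 reads in the DAC + ATRA libraries and 8, 2 and 6 reads in the DAC, ATRA and untreated libraries. It rests on few reads. The transcript reached the minimum of 10 normalized reads only in the DAC + ATRA libraries, which favoured a call in the fit with that minimum, and without a minimum the adjusted p was 0.00407 by limma over 25317 transcripts. In fits with the minimum it was 0.0362 in edgeR and 0.0381 by limma with a pseudocount of 0.1. Without a minimum, leaving out 1 library at a time kept the call in 3 of 12 fits, those without DAC library 5, ATRA library 8 or ATRA library 9 (adjusted p = 0.000936 to 0.0297 by limma over all 12).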

How the results depend on the processing

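No paired analysis was possible because the columns of the table carry no replicate number of the labels. Of 844 values of the 5 main transcripts, or of summed transcripts of their genes, under alternatives, 806 kept their direction and their side of the threshold. Another 24 lost and 8 gained a call and 6 changed sign. Fits with the minimum that left out 1 library share most of their data with the main fit. They gave 360 of these values, 354 of them unchanged. Such fits without a minimum for CD80 and PDCD1LG2 are also in the total. The counts of changed genes fell from 4 to 2 for DAC + ATRA against untreated and against ATRA, and from 1 to 0 for the interaction, with at least 10 reads in every library, a filter that CD80 and PDCD1LG2 could not pass. That filter also took PDCD1LG2 out of the count with DAC and CD80 out of that for DAC + ATRA against DAC. The interaction count was also 0 in edgeR, in DESeq2 and with a pseudocount of 0.1, and 2 at a threshold of 0.05. In DESeq2 CD80 had no adjusted p for the interaction. Without single libraries the count was 3 (DAC), 2 (ATRA), 4 to 5 (DAC + ATRA), 3 (against DAC), 3 to 4 (against ATRA) and 1 (interaction). The last is CD80 in the fit with the minimum that its DAC + ATRA libraries met. Without a minimum, an alternative chosen after seeing the data for CD80 and PDCD1LG2, its interaction was called in 3 of 12 fits and its difference from DAC in 8, as was that of PDCD1LG2 between DAC + ATRA and ATRA, while the other calls of both genes were kept in all 12.

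HAVCR2 lost its call with DAC in edgeR, and PDCD1LG2 lost that of DAC + ATRA against ATRA in DESeq2 (1.32, adjusted p = 0.0208). With a pseudocount of 0.1, CD80 missed the threshold against untreated (3.10, adjusted p = 0.0143 by limma) and against DAC (2.63, adjusted p = 0.0919 by limma). CD47 gained calls with DAC, with DAC + ATRA and for DAC + ATRA against ATRA when all its transcripts were summed (-0.68, -0.65 and -0.54), an alternative chosen after seeing the data. Values that changed sign were all small and not called. These were CD47 with DAC + ATRA against DAC in edgeR (0.0070), with summed transcripts (0.032) and without DAC + ATRA library 12 (range without single libraries -0.22 to 0.087), CD47 against ATRA without ATRA library 9 (range -0.55 to 0.079), and the HAVCR2 interaction without DAC library 6 or DAC + ATRA library 12 (range -0.068 to 0.11). The cause of these changes was not tested. CD274, CD80, CD86 and PDCD1LG2 held 2 to 169 reads in all, which limits what can be said of them, and the parts of depth and of read assignment in this were not tested.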
